A study of Mus musculus with 2 samples.

Results

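The RNA of 10 genes of the DNA double-strand break response was followed in nuclei of the gastrocnemius-plantaris (GP), a calf muscle of the mouse. The genes were taken by symbol from a fixed list of break sensing, checkpoint signalling and end joining, and all 10 were found among the 27998 genes of the count matrices. The genes were Rad50, Nbn, Parp1, Atm, Atr, Prkdc, Mdc1, Trp53bp1, Chek2 and Xrcc4. Single-nucleus RNA sequencing (snRNA-seq) had given 1 Ctrl library, from control muscle, and 1 cKO library, from muscle in which Net39 was deleted in the adult. Ctrl mice were Net39 fl/fl without Cre. The cKO mice were HSA-CreERT2; Net39 fl/fl, in which a skeletal actin promoter drives a tamoxifen-activated Cre recombinase in muscle fibres but not in satellite cells. Both groups carried the floxed allele and received tamoxifen. The labels give their background as B6C3F1, and by the study's methods the founders came from B6C3F1 zygotes and were bred to C57BL/6N. The mice were 5 months old, 3 months after tamoxifen, and by the labelled protocol 3 muscles per group were mixed into 1 library before nuclei were isolated. The sample titles name 1 mouse each, so whether a library holds muscle of 1 or of 3 animals is not settled. With 1 library per group the spread between animals is unknown, and every interval given is a 95% interval that covers counting error only.

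A double-strand break is first recognised by proteins that bind broken DNA ends. The complex of Mre11, Rad50 and Nbn brings in the kinase Atm, the Ku proteins bring in the kinase encoded by Prkdc, and single-stranded DNA brings in Atr. These kinases modify histones and mediators around the break, a checkpoint is switched on, and the ends are joined directly or repaired from a sister copy. Muscle nuclei no longer divide, so direct joining is their main route. Most of these steps work through changes to proteins already present, and RNA levels do not read the activity of the pathway. Net39 sits in the nuclear envelope of muscle cells, and its gene is listed as Plpp7.

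The libraries held 10410316 UMIs in 3863 Ctrl barcodes and 8446070 UMIs in 3994 cKO barcodes, with medians of 2106 and 1662.5 UMIs per nucleus. A UMI counts 1 captured RNA molecule. The libraries shared 5 barcodes. Gene positions are on GRCm38, from GENCODE M21. After filtering, 3526 Ctrl and 3595 cKO nuclei were used, of which 2981 and 3300 lay in clusters of muscle fibre nuclei (myonuclei) and 545 and 295 in clusters of other cells. The muscle myosin Myh4 reached 2135 CPM in Ctrl myonuclei and 1964 CPM in those of cKO. Malat1 took 25.5% of Ctrl and 30.7% of cKO UMIs, which lowers the share left for other genes in cKO. Levels are given as CPM, the UMIs of a gene in a pool of nuclei per 1000000 UMIs of that pool. A fall of all RNA per nucleus lowers the UMIs of a gene but not its CPM, so these levels cannot show it.

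The targeted gene was examined first. Plpp7 RNA stood at 51.8 CPM (46.9 to 57.1) in Ctrl myonuclei and 41.0 CPM (36.3 to 46.1) in cKO myonuclei, a log2 ratio of -0.34 (-0.56 to -0.11). The deletion removes the first exon whereas reads come from the 3′ end of the RNA. Whether RNA without that exon is counted here was not tested, and the level was not used as a check of the labels. The study reports reduced Net39 RNA in cKO muscle by bulk RNA sequencing. The level differed between classes. In cluster 1, type I-like, it was 54.2 CPM in Ctrl and 9.98 CPM in cKO (log2 ratio -2.44, -3.38 to -1.51), and in nuclei with mixed myosins 61.0 and 28.0 CPM (-1.12, -2.10 to -0.19). In the nuclei whose main myosin was Myh4 it was 54.7 and 60.3 CPM (0.14, -0.13 to 0.41), and in cluster 3, Myh4-high, 52.9 and 78.1 CPM (0.56, 0.06 to 1.06).

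The promoter windows of 3 members are shown because of their levels in fibres against other cells, given further on: Mdc1 and Chek2 had the lowest ratios of fibres over other cells, and Trp53bp1 was lower in fibres in both libraries beyond counting error. Each window runs from 250 bases before to 50 bases after the RefSeq start, on GRCm38.p6, and is written 5′ to 3′ on the strand of the gene. A window was found for 7 of the 10 members. Capitals mark CCAAT boxes (CCAAT or its reverse complement ATTGG) and E2F sites (TTTCCCGC, TTTCGCGC, TTTGCCGC, TTTGGCGC or their reverse complements), and the windows shown held no match of the other motifs searched on both strands. Those were the ETS site, spelled CCGGAAGT, and the cyclic AMP response element (CRE), spelled TGACGTCA. The AP-1 site was searched as TGACTCA. For the TATA box the letters searched were TATAAA. The marked matches do not overlap.
Mdc1, chr17:35841248-35841547, plus strand: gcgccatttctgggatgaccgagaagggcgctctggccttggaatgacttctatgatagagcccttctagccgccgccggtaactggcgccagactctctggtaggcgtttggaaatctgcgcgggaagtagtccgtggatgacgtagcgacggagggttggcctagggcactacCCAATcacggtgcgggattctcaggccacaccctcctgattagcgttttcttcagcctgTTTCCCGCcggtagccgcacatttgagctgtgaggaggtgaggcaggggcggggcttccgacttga
Chek2, chr5:110839733-110840032, plus strand: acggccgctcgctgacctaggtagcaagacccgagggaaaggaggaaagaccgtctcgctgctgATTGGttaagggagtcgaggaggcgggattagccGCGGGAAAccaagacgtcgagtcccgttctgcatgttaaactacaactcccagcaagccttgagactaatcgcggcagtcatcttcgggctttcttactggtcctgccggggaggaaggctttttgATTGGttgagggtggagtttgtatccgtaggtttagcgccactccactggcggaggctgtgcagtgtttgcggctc
Trp53bp1, chr2:121271358-121271657, minus strand: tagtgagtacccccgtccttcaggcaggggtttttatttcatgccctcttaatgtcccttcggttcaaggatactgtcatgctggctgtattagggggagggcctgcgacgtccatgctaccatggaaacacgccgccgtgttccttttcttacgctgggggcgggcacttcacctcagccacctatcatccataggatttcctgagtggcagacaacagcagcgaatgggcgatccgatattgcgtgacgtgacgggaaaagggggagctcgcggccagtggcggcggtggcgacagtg
The Mdc1 window held 1 CCAAT box and 1 E2F site. The Chek2 window held 2 CCAAT boxes and 1 E2F site. The Trp53bp1 window held none of the 6 motifs searched. An E2F site was present in 2.26% and a CCAAT box in 37.4% of all 32851 windows of this length. The shares were 3.89% for ETS, 1.79% for CRE, 5.202% for AP-1 and 13.6% for TATA. Of the other member windows, that of Atm held a CCAAT box and a TATA box, and those of Parp1, Atr and Xrcc4 held no match. A match describes letters and is not evidence of binding. The motifs were chosen after the levels had been seen.

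In myonuclei, no member differed between cKO and Ctrl by 1.5-fold, and the RNA of the 10 genes together was slightly lower in cKO. Summed over the members, Ctrl myonuclei had 357 CPM (344 to 371) and cKO myonuclei 321 CPM (308 to 335), a log2 ratio of -0.15 (-0.24 to -0.07). Of the 9 members with at least 20 UMIs over both libraries, 0 were past 1.5-fold in either direction, where 9.43% of 11469 genes were higher and 13.4% were lower by that fold. The median log2 ratio was -0.15 over these 9 members and -0.08 over all genes, with 2 members above 0 and 7 below. The lower sum depended on scaling. With Malat1 and mitochondrial genes left out of the total it was -0.054 (-0.14 to 0.027).

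**Figure D1:**
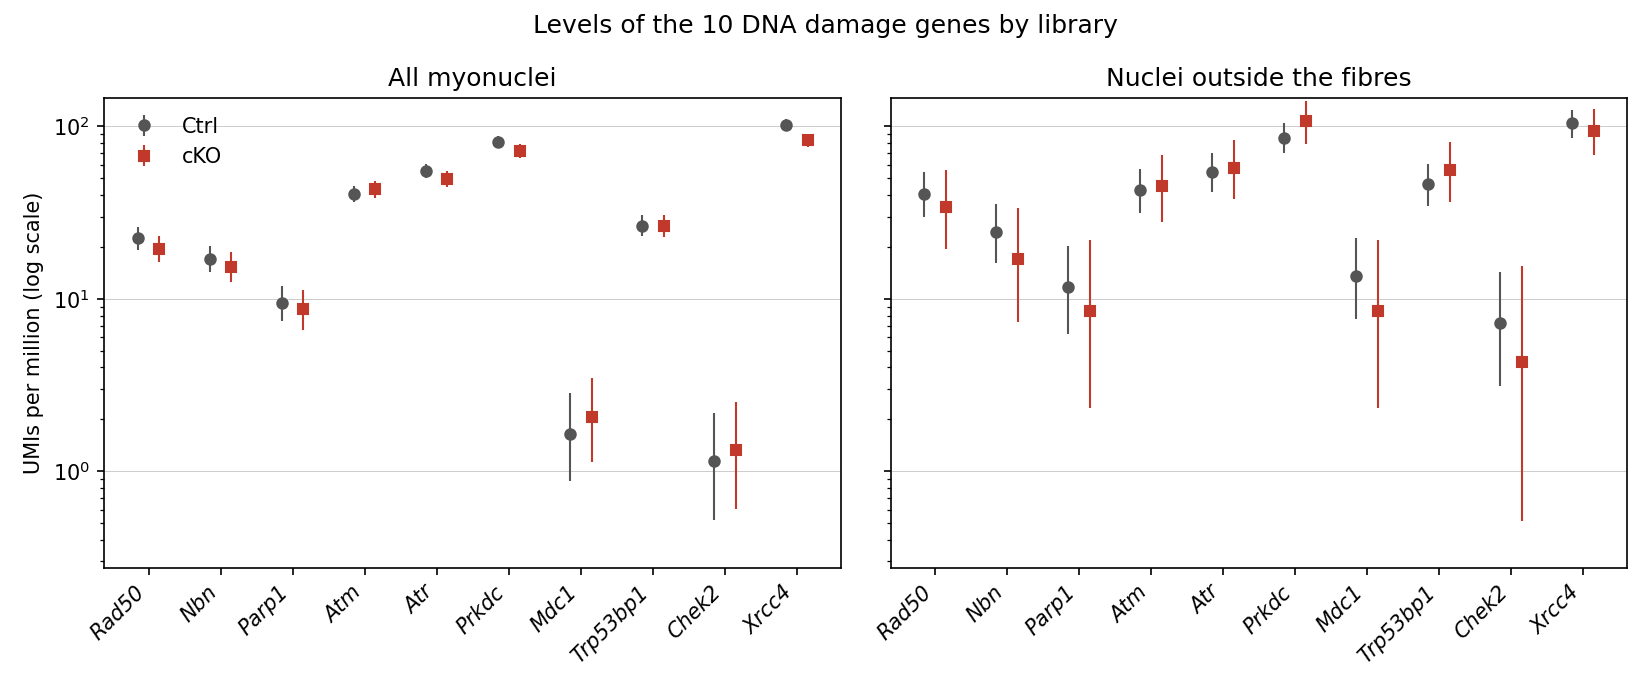
CPM of each gene (log scale) in all myonuclei and in nuclei outside the fibres, for the Ctrl library (circles) and the cKO library (squares), with exact Poisson intervals. In myonuclei the levels run from about 1 CPM for Chek2 to 103 CPM for Xrcc4 in Ctrl, and the Ctrl and cKO points lie close together for every gene.

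The break sensors were close in both libraries. Rad50 (chr11:53649519-53707319, minus strand), the ATPase that tethers DNA ends, had 22.4 CPM (176 UMIs) in Ctrl and 19.5 CPM (132 UMIs) in cKO myonuclei, a log2 ratio of -0.20 (-0.54 to 0.13). Nbn (chr4:15957925-15992589, plus strand), the adaptor that links this complex to Atm, had 17.0 and 15.3 CPM, a log2 ratio of -0.15 (-0.53 to 0.23). Parp1 (chr1:180568924-180601254, plus strand), which marks breaks with poly(ADP-ribose) chains, had 9.41 and 8.71 CPM, a log2 ratio of -0.11 (-0.63 to 0.40). Each estimate lay below 0 and each interval held 0.

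The apical kinases showed no common direction. Atm (chr9:53439149-53536740, minus strand), the kinase activated at double-strand breaks, had 40.6 CPM (319 UMIs) in Ctrl and 43.2 CPM (293 UMIs) in cKO, giving a log2 ratio of 0.09 (-0.14 to 0.33). Atr (chr9:95857597-95951781, plus strand), the kinase that answers single-stranded DNA, had 55.1 and 49.6 CPM, a log2 ratio of -0.15 (-0.36 to 0.06). Prkdc (chr16:15637866-15842235, plus strand), which encodes the catalytic subunit of the DNA-dependent protein kinase, had 81.0 CPM (637 UMIs) and 72.0 CPM (488 UMIs), a log2 ratio of -0.17 (-0.34 to 0.0023). Each of these intervals held 0, that of Prkdc narrowly.

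Mediators and the checkpoint kinase gave few UMIs or no difference. Trp53bp1 (chr2:121193281-121271407, minus strand), whose protein 53BP1 protects ends for direct joining, had 26.6 CPM in both libraries (209 and 180 UMIs), a log2 ratio of -0.0011 (-0.30 to 0.29). Mdc1 (chr17:35841515-35859670, plus strand), the mediator that reads phosphorylated H2AX, was seen with 13 UMIs in Ctrl and 14 in cKO myonuclei, or 1.65 and 2.07 CPM. Chek2 (chr5:110839979-110874145, plus strand), the checkpoint kinase downstream of Atm, was seen with 9 UMIs in each library, or 1.14 and 1.33 CPM. The intervals of Mdc1 (-0.88 to 1.53) and Chek2 (-1.29 to 1.72) reached past 1.5-fold on both sides, so a difference of that size was not detectable at this depth.

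Xrcc4 (chr13:89774027-90089608, minus strand), which holds DNA ligase IV at the ends during direct joining, was the only member whose interval in all myonuclei lay below 0, where 21.2% of all 11469 genes had such an interval, and 14.5% with Malat1 and mitochondrial genes left out of the total. It had 103 CPM (95.6 to 110, 806 UMIs) in Ctrl and 82.9 CPM (76.2 to 90.1, 562 UMIs) in cKO, giving a log2 ratio of -0.31 (-0.46 to -0.15). Without Xrcc4 the summed log2 ratio of the other 9 members was -0.10 (-0.19 to -0.0017). The Xrcc4 ratio was -0.21 (-0.36 to -0.05) with Malat1 and mitochondrial genes left out and -0.08 (-0.42 to 0.26) when each nucleus was thinned to 500 UMIs. Among counted genes on the opposite strand, Tubgcp4 shares 5490 bases with Trp53bp1, Gm16794 and 1700065D16Rik share 9737 and 726 bases with Atr, and Tmem167 shares 486 bases with Xrcc4. The study used default counting, which leaves out reads antisense to a gene.

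**Figure D2:**
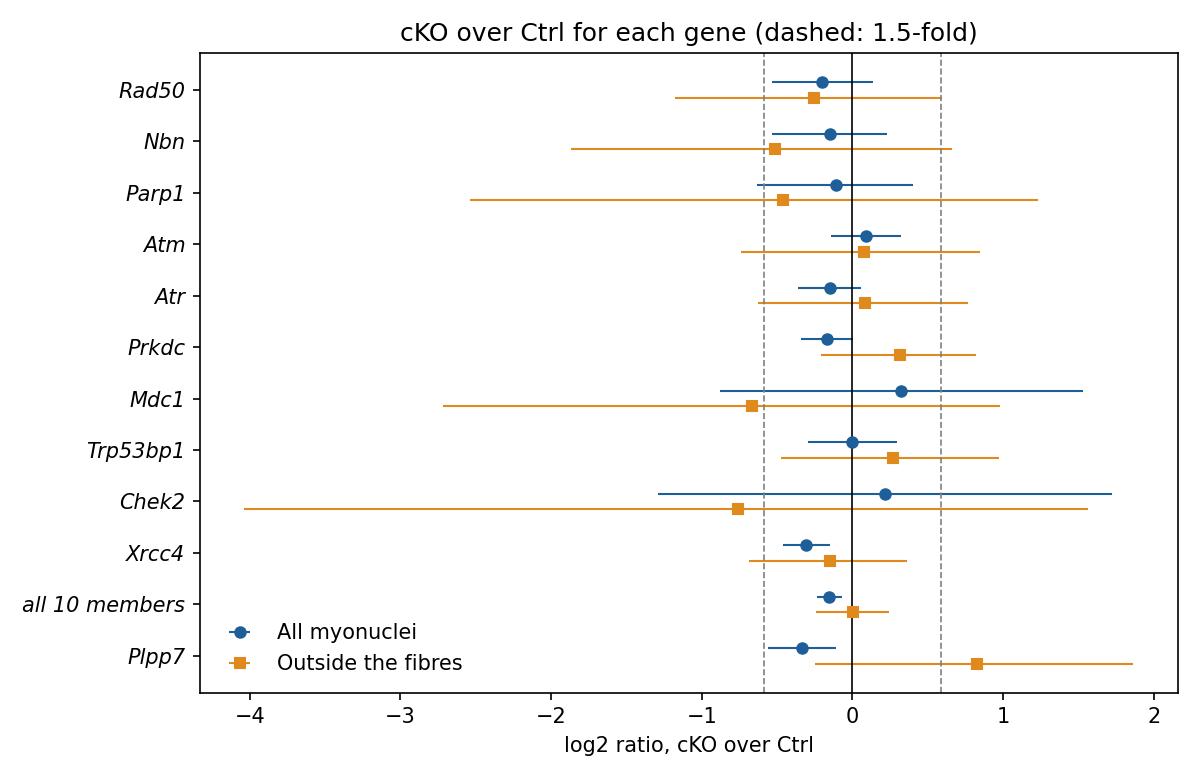
Log2 ratio of cKO over Ctrl CPM for each member, for the sum of the 10 members and for Plpp7, in all myonuclei (circles) and outside the fibres (squares), with exact conditional intervals. Dashed lines mark 1.5-fold, and in myonuclei all member estimates lie between -0.31 and 0.32.

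The order of the members followed the length of the genes. Over the 10 members, Spearman's rho between CPM and gene span was 0.95 in both libraries, against 0.45 for exon length. Per kilobase of gene span, 8 members lay between 0.291 and 0.585 CPM in Ctrl and between 0.263 and 0.526 CPM in cKO. Mdc1 had 0.0911 CPM per kilobase in Ctrl and 0.114 in cKO. Chek2 had 0.0335 and 0.0389. Hence the high CPM of Xrcc4 went with its span of 316 kb, the longest of the members, while Mdc1 and Chek2 were low per length as well. Default counting of this kind takes exonic reads, unless the reference annotates introns as exons, and whether it did is not given in the sources used here.

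**Figure D3:**
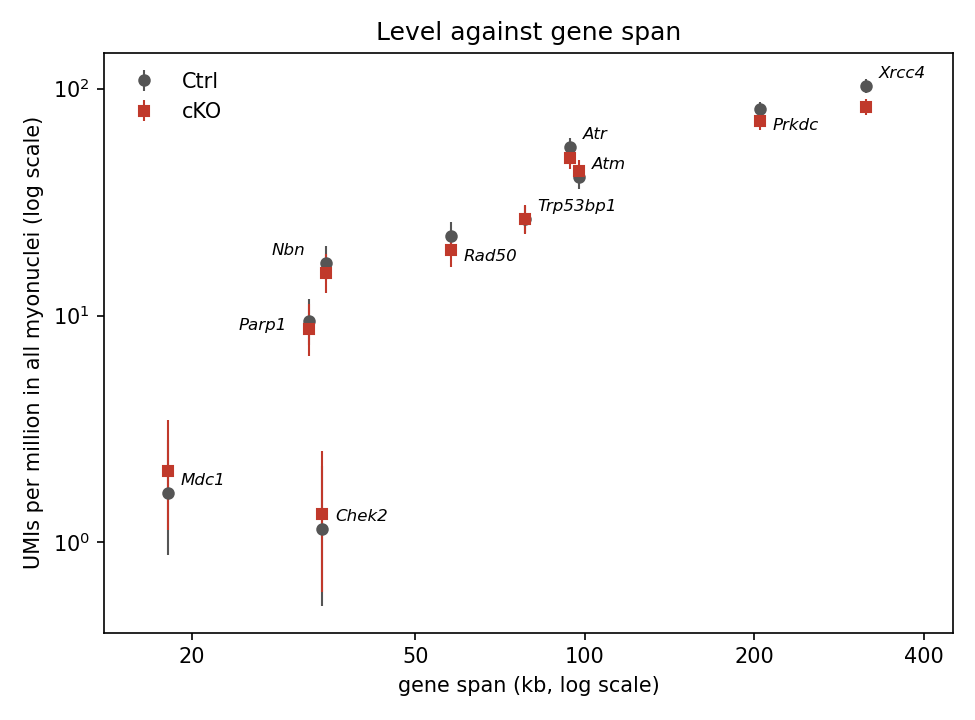
CPM in all myonuclei against gene span in kilobases, both on log scales, for the Ctrl library (circles) and the cKO library (squares) with exact Poisson intervals. Spans run from 18.2 kb for Mdc1 to 316 kb for Xrcc4, and Chek2 lies below the other members of like span.

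Outside the fibres, where Cre is not expressed, the members summed to the same level in both libraries. The sum was 431 CPM (393 to 472) in Ctrl and 432 CPM (374 to 495) in cKO, giving a log2 ratio of 0.0014 (-0.24 to 0.24). Of the 7 members with at least 20 UMIs there, 0 were past 1.5-fold, against 10.2% of 7871 genes higher and 17.4% lower. Their log2 ratios ran from -0.52 for Nbn to 0.31 for Prkdc, and the median was 0.08, against -0.08 over all genes. Prkdc had 86.1 CPM in Ctrl against 107 CPM in cKO, and its interval held 0 (-0.21 to 0.82).

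In Ctrl, Mdc1, Chek2, Trp53bp1 and Rad50 were lower in fibres than in the other cells of the same muscle. In the Ctrl library Mdc1 had 1.65 CPM in myonuclei and 13.6 CPM outside, a log2 ratio of fibres over outside of -3.04 (-4.23 to -1.87). Chek2 had 1.14 and 7.25 CPM, a log2 ratio of -2.66 (-4.21 to -1.09). In cKO the ratios were -2.05 (-3.72 to 0.01) for Mdc1 and -1.69 (-3.96 to 1.56) for Chek2, from 4 and 2 UMIs outside the fibres. The estimates pointed the same way in each library, and in cKO the intervals held 0.

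Trp53bp1 was the member whose fibre deficit was seen in both libraries beyond counting error. It had 26.6 CPM in Ctrl myonuclei and 46.2 CPM outside (log2 ratio -0.80, -1.24 to -0.33). In cKO the values were 26.6 and 55.6 CPM (log2 ratio -1.06, -1.66 to -0.41). Rad50 had 22.4 CPM in Ctrl myonuclei and 40.8 CPM outside (log2 ratio -0.86, -1.34 to -0.36), and -0.81 (-1.56 to 0.04) in cKO. Prkdc did not differ in Ctrl (-0.09, -0.40 to 0.24) and was lower in cKO myonuclei than outside (-0.57, -0.99 to -0.12).

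The remaining members did not differ between fibres and other cells beyond counting error. For Nbn, Parp1, Atm, Atr and Xrcc4 the log2 ratios ran from -0.52 for Nbn to 0.02 for Atr in Ctrl, and from -0.22 for Atr to 0.03 for Parp1 in cKO, and every interval held 0. Of the 9 members with at least 20 UMIs in Ctrl, 3 were lower in fibres by 1.5-fold and 0 higher, where 42.0% of 11113 genes were lower and 14.3% higher. In cKO 2 of 8 were lower, where 40.5% of 10184 genes were. The members' shares were thus no larger than those of all genes. Free fibre RNA was present in the outside nuclei. Myh4, a myosin gene of fast fibres, stood there at 54.2% of its fibre level in Ctrl and 51.0% in cKO. Taking that share of the fibre level off the outside level, and the same share off its total, left a member sum of 518 CPM in Ctrl and 546 CPM in cKO, and log2 ratios of fibres over outside of -0.54 and -0.77. For Trp53bp1 the ratios were then -1.38 and -1.69, for Rad50 -1.48 and -1.35, and for Prkdc -0.18 and -0.99. For Nbn, Parp1, Atm, Atr and Xrcc4 they ran from -0.96 for Nbn to 0.042 for Atr in Ctrl and from -0.42 for Atr to 0.055 for Parp1 in cKO. These ratios have no interval.

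Fibre class was read from the myosin heavy chain gene with at least 60% of at least 3 myosin UMIs of a nucleus, which uses no member. The classes held 19 Ctrl and 276 cKO nuclei with Myh7 (slow, type I), 165 and 325 with Myh2 (IIa), 301 and 382 with Myh1 (IIx) and 1911 and 1432 with Myh4 (IIb). Nuclei with mixed myosins numbered 126 and 207, and those with too few myosin UMIs 459 and 678. Of all 6281 myonuclei, 690 had a main share between 50% and 70%, near the limit of 60%.

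Between myosin classes the summed level of the members had overlapping intervals. In Ctrl it ran from 316 CPM (264 to 376) in the Myh2 class to 366 CPM (350 to 383) in the Myh4 class. In cKO it ran from 294 CPM (255 to 337) in the Myh2 class to 339 CPM (318 to 361) in the Myh4 class. Neighbouring classes overlapped in their intervals in both libraries, apart from the step between the Myh4 class and the nuclei outside the fibres. Against all other myonuclei together, the Myh4 class had a summed log2 ratio of 0.12 (-0.00055 to 0.24) in Ctrl. In cKO the ratio was 0.14 (0.02 to 0.26), with an interval above 0. Fibre clusters with at least 20 member UMIs spread wider, from 319 CPM in cluster 5 to 529 CPM (392.4 to 697) in cluster 11, neuromuscular junction-like, in Ctrl, and from 197 CPM (130 to 286, 27 UMIs) in cluster 10, a type I-like cluster, to 393 CPM in cluster 3 in cKO. Cluster 10 had 318 CPM (178 to 524, 15 UMIs) in Ctrl, and its log2 ratio of -0.69 had an interval that held 0 (-1.65 to 0.32). The sum was lower in cKO in the Myh1 class (354 and 296 CPM, log2 ratio -0.26, -0.51 to -0.01) and in the Myh4 class (366 and 339 CPM, log2 ratio -0.11, -0.22 to -0.0013). Neither held under most other settings: in each of the 2 classes the interval held 0 in 7 of 9 alternatives, among them Malat1 and mitochondrial genes left out of the total (-0.14, -0.39 to 0.10 for Myh1 and -0.07, -0.18 to 0.04 for Myh4) and clusters in place of main myosin (-0.13, -0.35 to 0.08 and -0.019, -0.14 to 0.10). It was -0.11 (-0.43 to 0.22) in the Myh2 class. The Myh7 class held 14 member UMIs in Ctrl, and its ratio of -0.21 (-0.997 to 0.69) had little depth behind it.

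**Figure D4:**
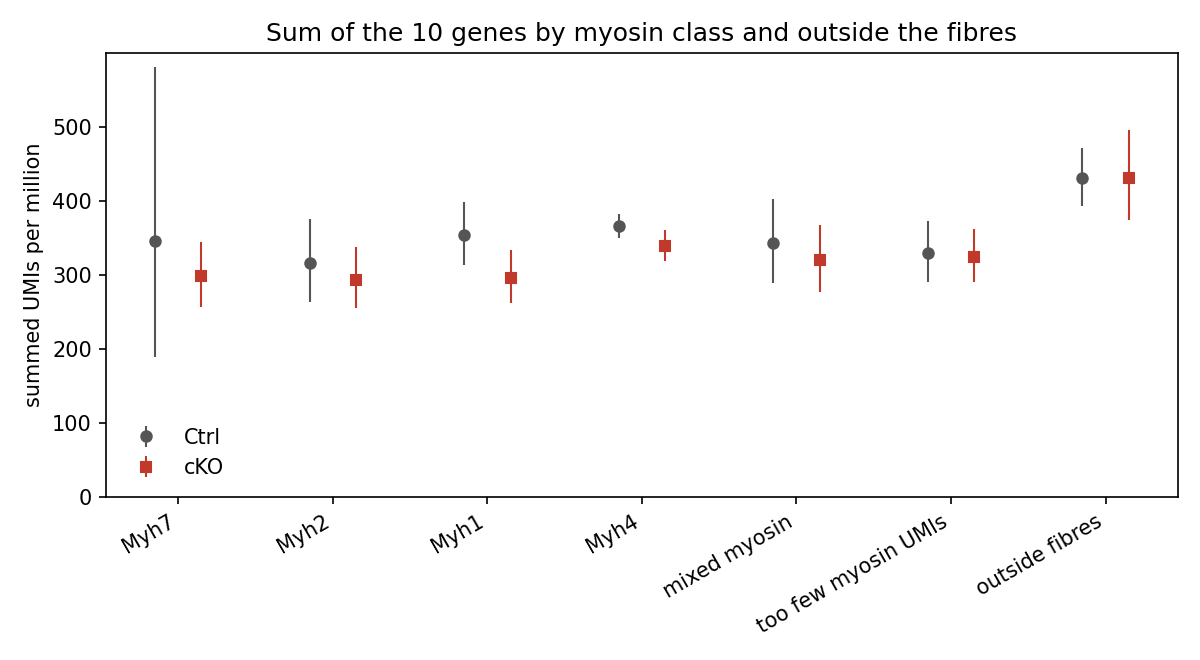
Summed CPM of the 10 members by main myosin of the nucleus and outside the fibres, for the Ctrl library (circles) and the cKO library (squares), with exact Poisson intervals. The outside nuclei lie highest at 431 and 432 CPM, and the Ctrl Myh7 class has the widest interval, 189 to 580 CPM.

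Within classes, Trp53bp1 was lower in cKO in the nuclei with Myh4 as main myosin and not in the pool of other myonuclei. In the Myh4 class it had 26.1 CPM (21.9 to 30.7, 141 UMIs) in Ctrl and 17.5 CPM (13.1 to 23.0, 52 UMIs) in cKO, giving a log2 ratio of -0.57 (-1.06 to -0.10). In the myonuclei outside the Myh4 class it had 27.7 and 33.6 CPM, a log2 ratio of 0.28 (-0.16 to 0.72). Within the cKO library the Myh4 class stood below the other myonuclei by a log2 ratio of -0.94 (-1.43 to -0.46), while in Ctrl that ratio was -0.09 (-0.52 to 0.35). The opposite estimates left the level over all myonuclei at 26.6 CPM in both libraries. The difference between the classes was not tested.

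The Trp53bp1 ratio in the Myh4 class stayed below 0 under each alternative, between -0.63 and -0.45, with an interval that held 0 only after thinning to 500 UMIs (-1.49 to 0.47). By cluster, 1 of 3 Myh4-high clusters had an interval off 0. In cluster 3, a Myh4-high cluster led by Odf3l2, Pfkfb3 and Gdap1, Trp53bp1 had 23.8 CPM (40 UMIs) in Ctrl and 9.59 CPM (7 UMIs) in cKO, giving a log2 ratio of -1.31 (-2.71 to -0.14). In cluster 4, Myh4-high and led by Sorcs1, it had 24.7 and 14.9 CPM (-0.73, -1.82 to 0.28). In cluster 0, the largest Myh4-high cluster, it had 24.5 and 22.9 CPM (-0.10, -0.91 to 0.67). The Myh4 class value is among 4 of 51 class intervals off 0 and that of cluster 3 among 5 of 105 cluster intervals. Neither for this class nor for this cluster was the share of all genes with such an interval counted. The nuclei of these clusters also appear in the Myh4 class, so the values are not a second measurement, and the cluster limits rest on a resolution chosen after the data were seen.

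Atm was higher in cKO in 2 of the same Myh4-high clusters. In cluster 3 it had 42.2 CPM (71 UMIs) in Ctrl and 67.2 CPM (49 UMIs) in cKO, giving a log2 ratio of 0.67 (0.11 to 1.22). In cluster 4 it had 33.5 and 56.0 CPM, a log2 ratio of 0.74 (0.10 to 1.38). In cluster 0 it had 47.4 and 38.4 CPM, a log2 ratio of -0.30 (-0.90 to 0.27). Over the whole Myh4 class the Atm ratio was 0.25 (-0.06 to 0.55), from Ctrl and cKO levels of 42.3 and 50.2 CPM. The estimates of the 3 clusters thus did not share a direction, and the difference between clusters was not tested. These 2 intervals are among the 5 of 105 cluster intervals that lay off 0. How many intervals of all genes lay off 0 in these clusters was not counted.

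**Figure D5:**
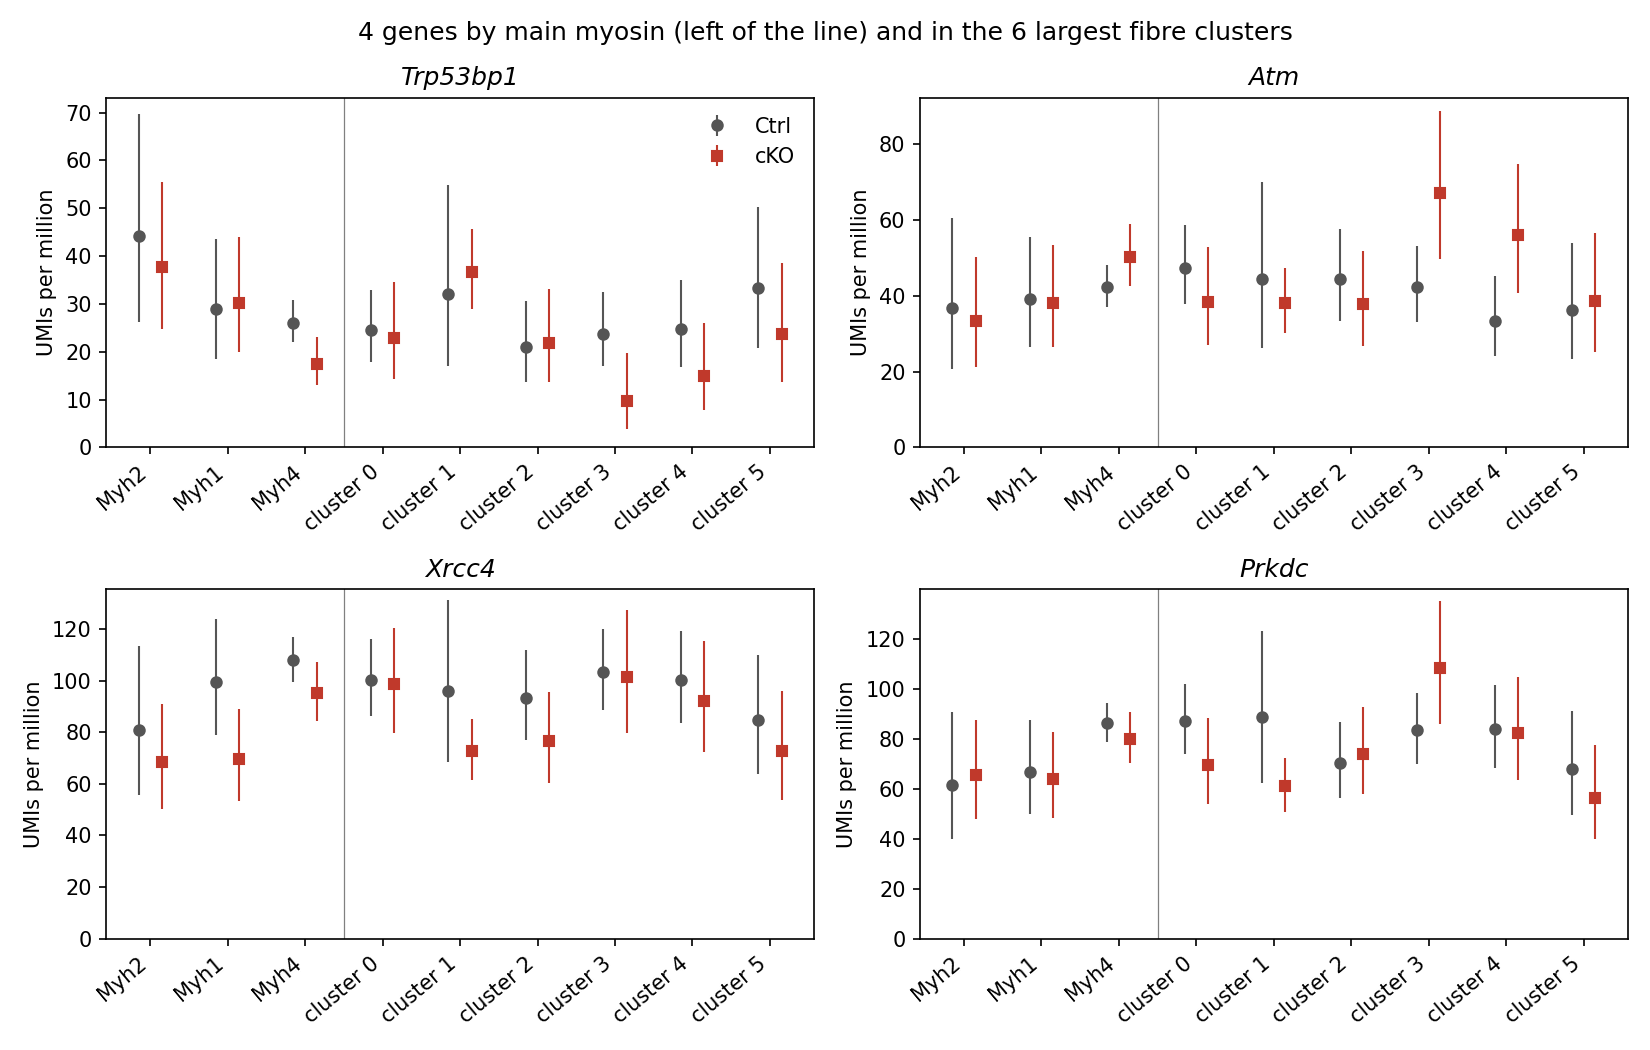
CPM of Trp53bp1, Atm, Xrcc4 and Prkdc in the Myh2, Myh1 and Myh4 classes (left of the line) and in the 6 largest fibre clusters (right), for the Ctrl library (circles) and the cKO library (squares), with exact Poisson intervals. In cluster 3 the cKO point of Trp53bp1 lies at 9.59 CPM against 23.8 CPM in Ctrl, and that of Atm at 67.2 CPM against 42.2 CPM.

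Xrcc4 was below Ctrl in several classes. In the Myh1 class it had 99.5 CPM (79 UMIs) in Ctrl and 69.5 CPM (62 UMIs) in cKO, giving a log2 ratio of -0.52 (-1.02 to -0.02). In nuclei with mixed myosins it had 106 and 57.7 CPM (-0.87, -1.55 to -0.20). In the Myh4 class it had 108 and 95.4 CPM, and the interval held 0 (-0.18, -0.39 to 0.03). In the 3 Myh4-high clusters 0, 3 and 4 the ratios were -0.02, -0.03 and -0.13. Within each library Xrcc4 and Prkdc were higher in the Myh4 class than in the other myonuclei, by log2 ratios of 0.25 (0.03 to 0.48) and 0.30 (0.05 to 0.57) in Ctrl and of 0.38 (0.14 to 0.63) and 0.28 (0.02 to 0.54) in cKO. Atm was higher in the Myh4 class than in the other myonuclei in cKO (0.41, 0.07 to 0.75). In Ctrl the interval of Atm held 0 (0.21, -0.15 to 0.57). The Myh4 class made up 64.1% of Ctrl and 43.4% of cKO myonuclei.

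Past 1.5-fold, among members with at least 20 UMIs in the class, 0 of 8 differed in the Myh4 class, against 8.62% of all genes there that were higher and 12.4% lower. In the Myh2 class 0 of 5 did (10.7% and 19.1% of all genes). In the Myh1 class 1 of 7 did, Nbn with 11.3 CPM in Ctrl against 19.1 CPM in cKO, log2 ratio 0.75 (-0.50 to 2.10), against 10.5% higher and 14.7% lower. In the Myh7 class 2 of 5 did, Xrcc4 higher (0.89, -1.03 to 3.97) and Atr lower, against 20.4% higher and 33.5% lower.

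Small classes gave larger ratios from few UMIs. In the neuromuscular junction-like cluster, 35 Ctrl and 37 cKO nuclei, Xrcc4 had 19 UMIs (201 CPM) in Ctrl and 5 UMIs (62.0 CPM) in cKO, giving a log2 ratio of -1.70 (-3.47 to -0.23). In the Myh7 class Atr had 6 UMIs from 5 nuclei (148 CPM) in Ctrl and 23 UMIs (37.7 CPM) in cKO, giving a log2 ratio of -1.98 (-3.31 to -0.39). Prkdc had 0 UMIs in the Ctrl Myh7 class, which allows up to 74.1 CPM (3 UMIs), and 63.9 CPM in cKO. Over the 6 myosin classes 4 of 51 member intervals lay off 0, all below, and over the 15 clusters 5 of 105 did, 2 above and 3 below. By its construction a 95% interval misses the true value in up to 5% of cases, which is not the share seen over all genes. In all myonuclei 13.2% of 11469 genes had an interval above 0 and 21.2% below. That share was not counted by class or cluster.

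Cluster 1, a type I-like cluster led by Frem2 and Nckap5, drew 85.1% of its nuclei from cKO. There the members summed to 367 CPM (311 to 431) in Ctrl and 301 CPM (278 to 325) in cKO, giving a log2 ratio of -0.29 (-0.55 to -0.02). Prkdc had 88.8 and 60.8 CPM (-0.55, -1.09 to 0.03), Xrcc4 96.2 and 72.7 CPM (-0.40, -0.92 to 0.14) and Trp53bp1 32.1 and 36.6 CPM (0.19, -0.67 to 1.16). Mdc1 was seen with 0 UMIs in Ctrl and 1 UMI in cKO in this cluster. Its nuclei differed between the libraries in fibre markers. Nuclei of the Myh7 class made up 7 of 150 in Ctrl (4.67%) and 214 of 860 in cKO (24.9%), Myh4 stood at 1095 and 506 CPM (-1.11, -1.28 to -0.95) and Atf3 at 274 and 162 CPM. Their part in the members' ratios was not tested.

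Atf3, a stress-induced transcription factor gene, had 18.3 CPM in Ctrl against 80.1 CPM in cKO myonuclei, and nuclei with an Atf3 UMI were compared with those without. A UMI may also come from free RNA. In cKO 222 myonuclei, 6.73% (5.90 to 7.64, exact binomial), had an Atf3 UMI, against 3.05% (1.40 to 5.71) of the nuclei outside the fibres, with medians of 1647 and 1155 UMIs. Thinned to 500 UMIs the shares were 2.52% (2.01 to 3.11) and 0.339% (0.00858 to 1.87). In Ctrl 53 myonuclei, 1.78%, had one, against 1.65% outside. The Ctrl UMIs were unevenly spread, with 111 of 144 in cluster 1 (274 CPM) and levels of 1.67 CPM in cluster 0 and 1.19 CPM in cluster 3. The Atf3 nuclei were deeper than those without, in Ctrl and cKO (medians of 2917 and 2265.5 UMIs against 2133.5 and 1614.5). In cKO the members summed to 296 CPM in nuclei with Atf3 and 324 CPM in nuclei without (log2 ratio -0.13, -0.34 to 0.08). Trp53bp1 was higher with Atf3, 41.5 CPM (29 UMIs) against 24.8 CPM (log2 ratio 0.74, 0.11 to 1.32). In Ctrl the sum was 269 CPM with Atf3 and 359 CPM without (-0.42, -0.87 to -0.0053), from 47 member UMIs, and Trp53bp1 had 5 UMIs (0.11, -1.53 to 1.35). In cKO Atm was lower with Atf3, 27.2 CPM (19 UMIs) against 45.1 CPM (log2 ratio -0.73, -1.48 to -0.06). Mdc1 had 0 UMIs in cKO nuclei with Atf3, and for every other member the cKO interval held 0. The share of all genes with an interval off 0 in this split was not counted. With at least 3 Atf3 UMIs required, 54 cKO nuclei were left, with Trp53bp1 at 55.1 CPM (14 UMIs, log2 ratio 1.15, 0.24 to 1.94) and Atm at 27.5 CPM (7 UMIs, -0.71, -2.04 to 0.35). Atf3 itself differed between fibre classes, with 37.1 CPM in the cKO Myh4 class, where Trp53bp1 was lower, against 104 to 126 CPM in the Myh1, Myh2 and Myh7 classes. The part of fibre class, of depth and of free RNA in the split by Atf3 was not tested.

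Of 54 other genes of the same response, fixed as 5 lists, 43 had at least 20 UMIs in myonuclei. Past 1.5-fold, 1 was higher and 2 were lower in cKO, against the 9.43% and 13.4% of all genes. Polq, the polymerase of alternative end joining, had 1.91 and 2.95 CPM (log2 ratio 0.63, -0.41 to 1.70). Xrcc2, a gene of homologous recombination, had 3.69 and 2.21 CPM (-0.74, -1.74 to 0.21), and Mad2l2, a shieldin subunit, 1.65 and 1.03 CPM (-0.68, -2.24 to 0.75). Each had fewer than 50 UMIs and an interval that held 0. With at least 50 UMIs required, 0 of 36 genes were past the fold.

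Over all genes, 58.5% lay below 0, and 48.2% with Malat1 and mitochondrial genes left out of the total. Differences between the lists were not tested. In the list of direct end joining, 8 of 10 genes lay below 0 with a median of -0.28. Xrcc5, the larger Ku subunit, had 131 CPM (1028 UMIs) in Ctrl and 95.5 CPM (647 UMIs) in cKO, giving a log2 ratio of -0.45 (-0.60 to -0.31), and Tdp2, which frees trapped topoisomerase from ends, 12.5 and 8.85 CPM (-0.49, -0.98 to -0.02). Dclre1c, the end-trimming nuclease Artemis, had 15.1 and 20.8 CPM (0.46, 0.10 to 0.82). In the list of the Mre11 complex and the Atr branch, 6 of 8 genes lay above 0 with a median of 0.23. Its clamp genes Rad1 and Rad9a had log2 ratios of 0.54 (-0.49 to 1.58) and 0.44 (-0.40 to 1.29). Of that list, Rad17, which loads the clamp, had 43.6 and 54.0 CPM (0.31, 0.09 to 0.52), and Telo2, which stabilises the kinases, 16.4 and 12.1 CPM (-0.44, -0.86 to -0.03). Over the 43 genes, 3 intervals lay above 0 (Rad17, Usp28 and Dclre1c) and 8 below (Telo2, Paxip1, Shld2, Xrcc5, Nhej1, Tdp2, Wrn and Parg), and Rad17, Telo2, Paxip1, Nhej1, Wrn and Parg were named after their values were seen. These are 6.98% above and 18.6% below, where 13.2% and 21.2% of all 11469 genes were. With Malat1 and mitochondrial genes left out of the total, 3 lay above and 5 below, without Telo2, Paxip1 and Tdp2, where 18.3% and 14.5% of all genes were. The medians were -0.25 for break chromatin marking (6 of 7 below 0), -0.17 for homologous recombination (9 of 10 below 0) and -0.08 for single-strand break repair (5 of 8 below 0), against -0.08 over all genes. Among the genes with most UMIs, Usp28, a deubiquitinase that binds 53BP1, had 167 and 197 CPM (0.25, 0.13 to 0.36), and Shld2, a shieldin subunit, 113 and 95.3 CPM (-0.25, -0.40 to -0.10).

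Likeness of pattern was measured as Pearson's r of log2(CPM + 10) over 20 pools of cluster and library with at least 50 nuclei. These pools share libraries and depth, and the values are a description. The genes most like Xrcc4 were Utp20 (0.87), Tnfrsf21 (0.85) and Zhx2 (0.85), out of 5046 compared. Those most like Prkdc were Nck1 (0.84), Zbtb46 (0.82) and Kmt2c (0.82), out of 5603. Among members, Atr was most like Xrcc4 (0.68), and Xrcc4 and Prkdc had an r of 0.43 with each other.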

How the data were processed

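The labels gave 1 Ctrl and 1 cKO library. The authors made the deposited matrices with Cell Ranger 3.1.0 on mm10 and deposited raw UMI counts per gene and barcode. Nuclei with at least 100 genes, at least 500 UMIs and at most 10% mitochondrial UMIs were kept. Scrublet (scanpy 1.11.5) marked 0 doublets on its own, so the 8% with the highest score were removed in each library. Libraries were integrated and clustered with Seurat 5.3.0 and sctransform 0.4.2 on 25 principal components, with the 10 members left out of the integration features. Of 3 resolutions run, 0.5 was chosen after marker separation had been seen, in place of the lower one in the study's methods, and gave 15 clusters. Clusters were named from marker lists with at least 3 markers at 2 times the level of other nuclei, and cluster 7, endothelial-like, also held smooth muscle markers. Raw counts were summed per library and class. Levels have exact Poisson and ratios exact conditional intervals (scipy 1.17.1). No test was made, since nuclei are not replicates. The ratio code was tested on simulated data. Genes outside the 10 were named by rule: Plpp7, Atf3 and Myh4, the other response genes with the highest and lowest ratios or most UMIs, and the genes most like Xrcc4 and Prkdc. Of the other response genes, 6 were named beyond this rule, for intervals off 0. The members and lists were chosen with earlier results of these data known. Gene spans are from GENCODE M21, which held 27645 of the 27998 identifiers, and promoters are from RefSeq. Alternatives were doublet removal, a minimum of 1000 UMIs, other scaling, thinning, myosin limits, thresholds and resolution 0.3.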

Additional observations from a re-analysis of the deposited data

How the results depend on the processing

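Of 250 values recomputed under another setting, 229 stayed within the interval, or for counts within 1.5 times, of the value reported, and 26 of 233 log2 values changed sign, most of them near 0. The summed log2 ratio in all myonuclei, -0.15 as reported, was -0.054 with Malat1 and mitochondrial genes left out of the total and -0.070 when centred on the median of all genes. Thinned to 500 UMIs per nucleus, the summed ratio was 1.23 in the Myh7 class and -0.48 in the Myh2 class, both from few UMIs. The number of other response genes past 1.5-fold was 3 as reported, 5 with CPM averaged over nuclei, 8 of 30 after thinning and 0 with at least 50 UMIs. The members past 1.5-fold in all myonuclei stayed at 0 under each alternative, also with all members included. The count of 0 at 2-fold follows from that at 1.5-fold. Fibres over outside, -0.27 in Ctrl, was -0.43 with CPM averaged over nuclei and -0.50 after thinning. In cKO, -0.43 as reported, it was -0.18 with at least 1000 UMIs per nucleus and -0.65 after thinning. With free fibre RNA subtracted from the outside level and its total it was -0.54 in Ctrl and -0.77 in cKO. Subtracted from the level alone it was 0.59 and 0.26. By construction this lies above the value with the total also corrected, by the same amount for every gene of a library. Against the reported ratios the members moved unequally, in Ctrl Mdc1 from -3.04 to -2.94 and Atr from 0.02 to 1.17. The lower sums in the Myh1 and Myh4 classes had an interval that held 0 in 7 of 9 alternatives each. Chek2 in the Myh4 class, with 8 UMIs in all, was reversed to 0.14 with doublets kept. The settings for members in the Myh4 class, resolution 0.3, the 2 free RNA steps for fibres over outside and the limit of 3 Atf3 UMIs were added after the data were seen. No paired analysis was possible because the libraries share only 1 replicate number. Leaving out a replicate was not possible with 1 library per group. Depth limits Mdc1 and Chek2 most.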
